A study of Rattus norvegicus with 25 samples.

Results

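This report covers the genes of extracellular Wnt signalling in rat gingiva: the Wnt ligands, their Frizzled and Lrp receptors, the R-spondin agonists, the secreted antagonists and 3 genes that act inside or at the receiving cell (Axin2, Lef1 and Rnf43). Members were chosen by symbol alone. A gene belonged if its symbol began with Wnt, Fzd, Sfrp, Dkk or Rspo and a digit, or was Lrp5, Lrp6, Axin2, Lef1, Wif1, Sost, Znrf3 or Rnf43. The rule found 48 of the 30547 genes in the table, and all 48 had reads. They were 19 ligands, 12 receptors, 4 R-spondins, 10 antagonists and the 3 genes named above. Znrf3 was not found under that symbol and is not analysed here. In the test across all genes, which kept those reaching 2 CPM (reads of the gene scaled to the library total) in at least 1 library, 40 members were kept, and Wnt1, Wnt2, Wnt7a, Wnt8a, Wnt8b, Wnt9b, Wnt10b and Dkk1 were below that level.

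Wnt proteins are lipid-bearing secreted ligands that bind Frizzled receptors, and the co-receptors Lrp5 and Lrp6 join them when the signal runs through beta-catenin. In the nucleus beta-catenin then works with transcription factors of the TCF/LEF family, of which Lef1 is one, and Axin2 is a widely used target gene that feeds back on the pathway. R-spondins strengthen the signal by keeping Rnf43 from removing Frizzled receptors. In contrast, most Dkk proteins and Sost block the Lrp co-receptors, and Sfrp proteins and Wif1 bind the ligands. In oral tissues the pathway is known for its part in epithelial renewal, tooth development and bone formation.

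The study applied injectable methylcellulose gels with curcumin (Cur gel), zinc oxide nanoparticles (ZNP gel) or both (Cur/ZNP gel) to rats with experimental periodontitis (EP). All rats were wild type Sprague-Dawley rats, labelled as 6 weeks old, while the study's methods give an older age and male sex. Periodontitis was set up with a silk thread tied around both upper first molars and coated with Porphyromonas gingivalis. Total RNA from gingiva was sequenced in 5 groups of 5 libraries, and neither the labels nor the methods say that each library came from 1 rat: sham (control rats given gel without drug), EP, and EP followed by the Cur gel, the ZNP gel or the Cur/ZNP gel. Each gel was given as 200 µL into the periodontal pocket once a week for 4 weeks. By the study's methods the combined gel held each agent at a lower concentration than the single gels did, and whether EP rats received gel without drug is not stated. Libraries are named by group and replicate number (Sham 1, EP 1 and so on), and every gel group and the EP group share the same 5 sham libraries.

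Libraries held 50690789 to 81791804 reads assigned to transcripts. Values are normalized counts, that is, reads divided by 1 size factor per library, and because no transcript lengths were given they are compared between samples of 1 gene and never between genes. Sham 4, EP 3 and EP 4 carried 16.6% to 21.9% of their reads in genes of nasal glands, against at most 0.104% elsewhere. Sham 1, Sham 3 and Sham 4 had summed neuron marker counts of 39249, 83641 and 30378, Cur/ZNP gel 2 had 28608, and the other 21 libraries had 106 to 1851. Epithelial markers expected of gingiva were present, with all 8 basal and 9 of 10 differentiated keratinocyte markers found. Skeletal muscle markers summed to 24612 to 389346 in sham and 384009 to 2030034 in EP, with 7 of 7 tested higher in EP. Of the neuron markers, 8 of 10 were lower in EP. Of all genes tested, 18.8% were called higher and 18.8% lower. Their part in the results below was not tested. Calls against sham were also made without Sham 1, Sham 3 and Sham 4, which leaves 2 sham libraries, and without Sham 4, EP 3 and EP 4. In bulk tissue, fewer cells of a type and less RNA per cell cannot be told apart.

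The stretch of 250 bases before the gene start is printed for 4 members, because Wnt6 and Wnt10a are neighbours that both fell in EP and because the starts of Fzd7 and Axin2 carry the letters CTTTGA, the core of the sequence that TCF/LEF factors bind. Sequences are from the RefSeq promoter table (build GRCr8), which held 33 of the 48 members, in lower case with each CTTTGA, or TCAAAG for the other strand, in capitals.
Wnt6: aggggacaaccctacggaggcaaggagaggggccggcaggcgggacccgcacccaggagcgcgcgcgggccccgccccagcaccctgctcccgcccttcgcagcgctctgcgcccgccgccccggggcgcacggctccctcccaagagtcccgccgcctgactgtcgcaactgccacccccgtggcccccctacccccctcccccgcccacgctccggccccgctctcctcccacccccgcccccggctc
Wnt10a: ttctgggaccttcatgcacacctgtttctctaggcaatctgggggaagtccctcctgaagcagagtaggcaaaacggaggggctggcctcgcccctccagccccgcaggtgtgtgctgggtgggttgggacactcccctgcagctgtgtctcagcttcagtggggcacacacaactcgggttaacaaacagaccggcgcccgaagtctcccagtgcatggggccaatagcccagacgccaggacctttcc
Fzd7: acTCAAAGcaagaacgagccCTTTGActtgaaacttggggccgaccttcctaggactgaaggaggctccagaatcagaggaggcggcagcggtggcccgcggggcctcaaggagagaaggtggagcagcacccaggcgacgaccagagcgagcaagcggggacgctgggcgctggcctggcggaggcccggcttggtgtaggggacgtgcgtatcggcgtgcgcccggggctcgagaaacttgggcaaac
Axin2: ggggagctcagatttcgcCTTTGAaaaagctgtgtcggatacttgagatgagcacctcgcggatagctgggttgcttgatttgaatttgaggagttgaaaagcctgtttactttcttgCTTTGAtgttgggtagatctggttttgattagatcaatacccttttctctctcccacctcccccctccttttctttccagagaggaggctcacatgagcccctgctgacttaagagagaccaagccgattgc
The windows lie at chr9:83778302-83778551 (Wnt6), chr9:83798344-83798593 (Wnt10a), chr9:68425288-68425537 (Fzd7) and chr10:94398535-94398784 (Axin2), all on the plus strand. Searched on both strands, these 6 letters occurred at least once in 4 of the 33 member windows (12.1%) and in 13.9% of all 33469 windows of the same length. Members with a match were thus not more frequent. The 4 were Axin2, Fzd7 and Dkk1 with 2 matches each and Wnt8a with 1. At least 2 matches were found in 1.40% of all windows, a smaller share than among the 33 members, and this difference was not tested. Neither the Wnt6 nor the Wnt10a window held a match.

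The first comparison asks how Wnt gene expression in gingiva with periodontitis and no drug differed from sham. In EP, 5 members were higher and 4 lower. The co-receptors Lrp6 and Lrp5, the receptors Fzd4 and Fzd7 and the ligand Wnt9a rose, while the transcription factor Lef1, the ligands Wnt6 and Wnt10a and the receptor Fzd6 fell. These 9 were 22.5% of the 40 members tested, and the same call was made for 37.6% of all 16092 genes tested. With all libraries the members thus changed no more often than genes at large. By role, 3 of 12 ligands, 5 of 12 receptors, 0 of 4 R-spondins, 0 of 9 antagonists and 1 of 3 of the remaining genes passed. The median log2 fold change was -0.04 over the members and 0.01 over all genes. Of the 40 members tested, 2 (Lrp6 and Fzd4) lay above sham in EP without overlap and 1 (Wnt6) lay below. The same pattern was seen for 8.07% of all genes tested upward and 8.47% downward, so the members did not show it more often. At an unadjusted p under 0.05 there were 12 members (47.2% of all genes). All 9 passed in each of the 10 fits that left out 1 library. Without Sham 4 the count was 16 of the 40, where 37.4% of all genes were called. Without Sham 1, Sham 3 and Sham 4 it was 6 of the 40, where 6.34% of all genes were called. In that last fit the share of members was the larger, and whether the shares differed was not tested.

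**Figure D1:**
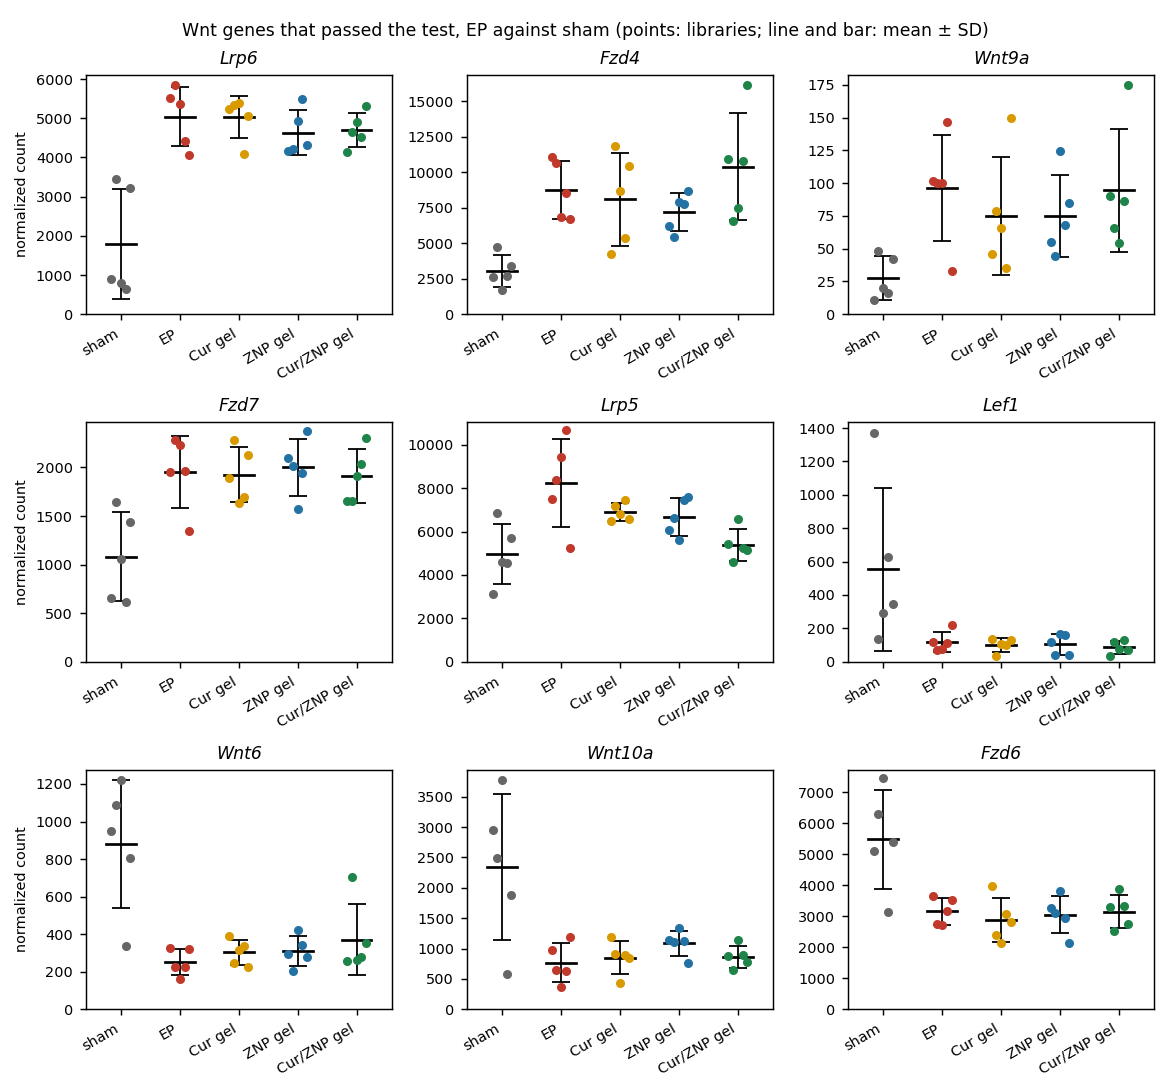
Normalized count (vertical axis, from 0) of the 9 members called between EP and sham, in each of the 25 libraries, with the mean and SD of each group of 5. Lrp6, Fzd4 and Wnt6 showed no overlap between EP and sham, and the 3 gel groups lay near EP and away from sham for most of the 9.

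Among the ligands, Wnt6, which is expressed in many epithelia, fell most clearly. Wnt6 (Rnor_6.0 chr9:82033543-82047166, plus strand) counted 949, 1089, 1223, 339 and 808 in Sham 1 to Sham 5 and 326, 227, 161, 224 and 323 in EP 1 to EP 5. The log2 fold change was -1.73 ± 0.32 (SE, adjusted p = 0.000540), and every EP library was below every sham library. In the gels Wnt6 counted 391, 247, 313, 338 and 223 with Cur gel, 296, 206, 422, 341 and 280.5 with ZNP gel and 257, 702, 261, 279 and 354 with Cur/ZNP gel, each group being called lower than sham with log2 fold changes of -1.45, -1.42 and -1.24. All 15 gel libraries were below the 4 higher sham libraries, the highest being Cur/ZNP gel 2, and several lay above Sham 4, the lowest sham library. The fall in EP was as large without Sham 1, Sham 3 and Sham 4 (-1.94, adjusted p = 0.00644) and without Sham 4, EP 3 and EP 4 (-1.80, adjusted p = 0.00171).

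Wnt10a, a ligand known for its need in tooth and skin appendage formation, starts 6.42 kb downstream of Wnt6 on the same strand (chr9:82053581-82066047). It counted 2949.6, 2495, 3778, 577 and 1886 in the sham libraries and 979.6, 645, 373, 634 and 1191 in EP, a log2 fold change of -1.48 ± 0.38 (SE, adjusted p = 0.00497). The groups overlapped through Sham 4, which at 577 was lower than 4 of the 5 EP libraries. Counts were 1183, 915, 437, 891 and 837 with Cur gel, 1138, 1103, 1332, 1119 and 761 with ZNP gel and 875, 648, 1140.1, 888 and 774 with Cur/ZNP gel. Against sham the Cur gel (log2 fold change -1.28 ± 0.38 SE, adjusted p = 0.0119) and the Cur/ZNP gel (-1.22 ± 0.38 SE, adjusted p = 0.0157) passed, the latter not without Sham 3 (adjusted p = 0.0541), and the ZNP gel did not (log2 fold change -0.88, adjusted p = 0.0812). In EP, Wnt10a gave -1.61 without Sham 1, Sham 3 and Sham 4 (adjusted p = 0.0177) and -1.56 without Sham 4, EP 3 and EP 4 (adjusted p = 0.00276).

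Wnt9a (chr10:45659143-45681393, plus strand), a ligand studied mainly in joints and blood cell development, was low throughout and higher in EP. Its counts were 10.5, 48.0, 19.7, 16.3 and 42.3 in sham and 102, 100.4, 100.1, 146 and 33.1 in EP, with a log2 fold change of 1.85 ± 0.48 (SE, adjusted p = 0.00490). EP 5 was the one EP library within the sham range. The rise did not pass without Sham 1, Sham 3 and Sham 4 (0.94, adjusted p = 0.311) or without Sham 4, EP 3 and EP 4 (1.41, adjusted p = 0.0760). The gel libraries held 45.7, 78.5, 65.6, 35.6 and 149.6 with Cur gel, 55.2, 44.1, 124, 68.0 and 84.7 with ZNP gel and 90.5, 66.1, 54.6, 86.5 and 175 with Cur/ZNP gel. All 3 gel groups were called higher than sham, with log2 fold changes of 1.46, 1.55 and 1.85, but the Cur gel call was lost without Cur gel 5 or Sham 1 and the ZNP gel call without Sham 1. Wnt3a lies 21.1 kb from Wnt9a on the opposite strand and did not pass, with a log2 fold change of -0.95 ± 0.49 (SE, adjusted p = 0.127) in EP.

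The other 9 ligands tested did not pass in EP. Their log2 fold changes ran from -0.95 (Wnt3a) to 0.52 (Wnt16), with adjusted p from 0.0749 (Wnt5b) to 0.993 (Wnt11). Wnt4, a ligand with many reads in these libraries, counted 6597, 7889.8, 8829.7, 1228 and 5422 in sham and 4424, 3094, 1666, 2320.3 and 4929 in EP. Sham 4 was the lowest of these 10 libraries, and the log2 fold change was -0.71 ± 0.38 (SE, adjusted p = 0.145) with it and passed without it. Wnt5a, the best known ligand of the routes that do not use beta-catenin, had a median of 3240.0 in sham and 1738 in EP, with the sham libraries spread from 878 to 4287 (log2 fold change -0.45, adjusted p = 0.324). Wnt3 and Wnt11 had medians of 126 and 477 in sham and 61.3 and 470.1 in EP, and neither passed.

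Lrp6, the co-receptor that carries the beta-catenin signal together with Lrp5, had the smallest adjusted p of all members in EP. Lrp6 (chr4:168194927-168323751, minus strand) counted 898, 3447, 795, 636 and 3210.3 in Sham 1 to Sham 5 and 5519, 5845, 5358, 4422 and 4063 in EP 1 to EP 5, a log2 fold change of 1.85 ± 0.33 (SE, adjusted p = 0.000409). The sham libraries formed a low set of 3 and a high set of 2, and the low set was the same Sham 1, Sham 3 and Sham 4 that held many neuron marker reads. Without these 3 libraries the log2 fold change was 0.59 (adjusted p = 0.0253), still past the threshold and well under the value with them. Cur/ZNP gel 2, which also held many neuron marker reads, counted 4643 for Lrp6, within the range of its group. Gel libraries counted 5243, 5341, 5399, 4097 and 5062 (Cur gel), 4174, 4224, 4933, 5500.5 and 4309 (ZNP gel) and 4132, 4643, 4894, 4534 and 5317 (Cur/ZNP gel), above every sham library in each case. Both annotated Lrp6 transcripts moved: one, with 48.4% of the reads, had a mean of 948 ± 586 (SD, n = 5) in sham and 2362 ± 293 in EP, and the other 849.5 ± 824 and 2680 ± 486.

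Lrp5 (chr1:218816841-218920094, minus strand), the partner co-receptor best known for its effect on bone mass, counted 3144, 6846, 4579, 4555 and 5682 in sham and 7509, 8355, 9410.1, 10666 and 5244 in EP. Its log2 fold change was 0.74 ± 0.18 (SE, adjusted p = 0.00308), with EP 5 inside the sham range. The gel libraries counted 6476, 7170.4, 6791, 7436 and 6587 (Cur gel), 6062, 6602, 5615, 7473 and 7573 (ZNP gel) and 5424, 4588, 6569, 5226 and 5126 (Cur/ZNP gel). The Cur gel passed against sham (log2 fold change 0.52 ± 0.18 SE, adjusted p = 0.0256), though not without Cur gel 2, Sham 1 or Sham 3, while the ZNP gel missed the threshold narrowly (log2 fold change 0.46, adjusted p = 0.05004) and the Cur/ZNP gel had 0.16 ± 0.18 (SE, adjusted p = 0.502). Without Sham 1, Sham 3 and Sham 4 the EP log2 fold change was 0.36 (adjusted p = 0.254), and without Sham 4, EP 3 and EP 4 it was 0.50 (adjusted p = 0.0687).

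Fzd4, a receptor known for its role in vessels, had the most reads of the members. Fzd4 (chr1:153589471-153598375, plus strand) counted 2628, 4723, 1682, 2671 and 3389 in sham and 11051, 10692, 6839, 8519.9 and 6745 in EP, so that the lowest EP library was above the highest sham library. The log2 fold change was 1.59 ± 0.29 (SE, adjusted p = 0.000518). With the gels the counts were 4213, 11850.2, 8664, 5340.4 and 10471 (Cur gel), 6209, 5462, 7939, 7792 and 8653 (ZNP gel) and 10935, 6564, 7492, 10777 and 16171 (Cur/ZNP gel), and all 3 groups were called higher than sham, by 1.40, 1.32 and 1.79 on the log2 scale. Only Cur gel 1, at 4213, was within the sham range among these 15 libraries. Without Sham 1, Sham 3 and Sham 4 the EP value was 1.10 (adjusted p = 0.0743).

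Fzd7 (chr9:66305731-66308550, plus strand), a receptor common in stem and progenitor cells, counted 658, 1646, 1059, 612 and 1439 in sham and 1953, 2282, 2232, 1960.2 and 1349 in EP. It rose by 0.94 ± 0.22 (SE, adjusted p = 0.00259) on the log2 scale, and EP 5 was below 2 sham libraries. Gel libraries held 1896, 2288, 1631, 1695 and 2126 (Cur gel), 2101, 2011, 1569, 1947 and 2379 (ZNP gel) and 1655, 1656, 1909, 2036 and 2308 (Cur/ZNP gel), all called higher than sham by 0.93, 0.98 and 0.92. As with Lrp6, the higher sham libraries were Sham 2 and Sham 5, and without the other 3 the EP value was 0.32 (adjusted p = 0.301).

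Fzd6 (chr7:77899322-77931029, plus strand), a receptor of planar polarity in skin and hair, was the one receptor that fell. It counted 5116, 6286, 7469, 3153 and 5413 in sham and 3659, 2748, 2705, 3165 and 3519.9 in EP, a log2 fold change of -0.75 ± 0.20 (SE, adjusted p = 0.00611). The overlap came from Sham 4 at 3153. Counts with the gels were 3993, 2390.1, 2139.6, 3076 and 2814 (Cur gel), 3273, 3096, 3810.2, 2935 and 2151 (ZNP gel) and 3299, 2517, 3874, 3339 and 2749 (Cur/ZNP gel), and each group was called lower than sham, by -0.91, -0.81 and -0.76. Leaving out Sham 1, Sham 3 and Sham 4 gave -0.90 in EP (adjusted p = 0.0245).

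The remaining 7 receptors did not pass in EP. Fzd2, Fzd3 and Fzd8 had log2 fold changes of -0.05, 0.00 and -0.11, and Fzd1, Fzd5 and Fzd10 had -0.33, 0.55 and -0.62. Fzd10 is annotated as a pseudogene in the build used. Fzd9 had the largest difference of all members, 2.14 ± 0.94 (SE) on the log2 scale, and an adjusted p of 0.0760. Its counts spread from 17.7 to 1165 in sham and from 128 to 981 in EP, with a sham median of 56.9. The highest values of both groups were in Sham 4, EP 3 (981) and EP 4 (757), the libraries with many nasal gland reads, and their part in the result was not tested. Fzd9 passed without Sham 4, without EP 5 and without Sham 1, Sham 3 and Sham 4.

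Lef1 (chr2:236233239-236345056, plus strand), the TCF/LEF factor also needed in T cell development, was the member with the largest fall in EP. It counted 1369, 134, 291, 626 and 349 in sham and 116, 69.7, 76.1, 109.8 and 222 in EP, a log2 fold change of -1.91 ± 0.56 (SE, adjusted p = 0.0111). Sham libraries spread widely, with Sham 1 far above Sham 2, and EP 5 was above Sham 2. In gel libraries Lef1 counted 136, 34.5, 104, 98.8 and 131 (Cur gel), 119, 41.5, 168, 159 and 38.5 (ZNP gel) and 37.4, 117, 77.7, 132 and 67.5 (Cur/ZNP gel), with log2 fold changes against sham of -2.16, -2.22 and -2.37, all called. The fall in EP did not pass without Sham 1, Sham 3 and Sham 4 (-0.99, adjusted p = 0.365) or without Sham 4, EP 3 and EP 4 (-1.60, adjusted p = 0.0963). Across the same libraries the summed counts of 10 T cell markers were 15657, 2435, 3523, 10960 and 7091 in sham and 1259 to 4746 in EP, in the same order over the sham libraries as Lef1 itself.

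Axin2 (chr10:97212432-97239642, plus strand), the feedback target most often read as a gauge of beta-catenin signalling, did not pass in EP. It counted 1204, 1253, 1353, 756 and 1199.8 in sham and 1168, 853, 627, 1009 and 1034 in EP, a log2 fold change of -0.30 ± 0.18 (SE, adjusted p = 0.202), 95% interval -0.68 to 0.08. Without Sham 4, the lowest sham library, it was -0.45 and passed. Gel libraries counted 883, 963, 744, 691 and 825 (Cur gel), 814, 635, 841, 972 and 871 (ZNP gel) and 1147, 699, 795, 1069 and 1109 (Cur/ZNP gel). The Cur gel passed against sham (-0.47 ± 0.18 SE, adjusted p = 0.0468), a call lost in 8 of the 10 fits without 1 library, all but those without Cur gel 2 or Sham 4, where the ZNP gel (-0.47 ± 0.18 SE, adjusted p = 0.0560) and the Cur/ZNP gel (-0.26 ± 0.18 SE, adjusted p = 0.269) did not.

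Rnf43 (chr10:74959285-75028951, plus strand), the ubiquitin ligase that takes Frizzled receptors off the membrane, counted 399, 756, 479.9, 427 and 673 in sham and 544, 624, 799, 1145 and 673 in EP (log2 fold change 0.47 ± 0.25 SE, adjusted p = 0.147). The gel libraries counted 855, 531, 471, 734 and 373 (Cur gel), 533, 709, 504, 482 and 396 (ZNP gel) and 408, 353, 632, 418 and 319 (Cur/ZNP gel). None of the 4 groups passed against sham. The Cur/ZNP gel group was the lowest and EP the highest in mean.

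None of the 9 antagonists tested passed in EP. Sfrp2 (chr2:182723854-182731764, plus strand), a secreted Frizzled-like decoy made by fibroblasts, was among the 4 members with most reads. It counted 4624, 7594, 4100.2, 14167 and 8918 in sham and 11575, 3949, 7358, 5154 and 5223 in EP, with a log2 fold change of -0.20 ± 0.51 (SE, adjusted p = 0.779). The spread within each group was larger than the difference, and without Sham 4 the value was 0.05. With the gels Sfrp2 counted 6838, 2024, 4656, 6748 and 1934 (Cur gel), 4721, 2262, 11579.6, 5178 and 1395 (ZNP gel) and 5659, 2975, 3865, 5216 and 1648 (Cur/ZNP gel), and again no group passed against sham. Dkk3, a divergent member of its family, had the smallest adjusted p among antagonists, with a median of 3199 in sham and 2205 in EP (log2 fold change -0.51 ± 0.21 SE, adjusted p = 0.0575). Sfrp1, Sfrp5, Wif1 and Dkk2 had log2 fold changes of -0.23, -0.94, -0.66 and 0.13. Sost, the osteocyte product that blocks Lrp5 and Lrp6, had a median of 29.5 in sham and 16.5 in EP but means of 33.5 and 100.2. Its log2 fold change of 0.78 was the highest among the antagonists and gave no call. EP 4 and EP 5, at 386 and 86.2, lay above the highest sham library at 78.6. The R-spondins Rspo1, Rspo2, Rspo3 and Rspo4 differed by -0.03, -0.25, 0.91 and 1.37, and their smallest adjusted p was 0.174.

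The gel groups were then compared with the same sham libraries, so the 4 comparisons are not independent. With the Cur gel 12 members were called, against 38% of all genes, 6 of them higher (18.9% of all genes) and 6 lower (19.1%). The ZNP gel gave 9, against 32.1% of all genes, 6 higher (16.7%) and 3 lower (15.4%). For the Cur/ZNP gel the count was 14, against 39.7% of all genes, with 8 higher (20.2%) and 6 lower (19.5%). As shares of the 40 members tested these were 30%, 22.5% and 35%. The counts at an unadjusted p under 0.05 were 14 (47.5% of all genes), 15 (43.7%) and 16 (48.9%). The members Lrp6, Fzd4, Fzd7, Wnt9a, Lef1, Wnt6 and Fzd6 were called in the same direction in all 4 disease groups against sham, Wnt10a in 3 and Lrp5 in 2. Without Sham 1, Sham 3 and Sham 4, Wnt6 and Fzd6 were still called in all 4 groups, Wnt10a in the same 3, Lrp6 in all but the ZNP gel group (0.47, adjusted p = 0.0964) and Fzd4 with the Cur/ZNP gel alone (1.30, adjusted p = 0.0367). Fzd7, Lef1, Wnt9a and Lrp5 then lost every call, with adjusted p in the gel groups of 0.298 to 0.336 for Fzd7, 0.173 to 0.292 for Lef1 and 0.307 to 0.585 for Wnt9a, and 0.685 for Lrp5 with the Cur gel. The direction of these values stayed as it was. In those fits 7.03% of all genes were called for the Cur gel, 2.08% for the ZNP gel and 7.90% for the Cur/ZNP gel. The numbers of members were 5, 2 and 6 of the 40 tested, larger shares than those of all genes. Whether the shares differed was not tested. A further 8 members were called in gel groups and not in EP with all libraries, which does not by itself show that gels and EP differed.

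**Figure D2:**
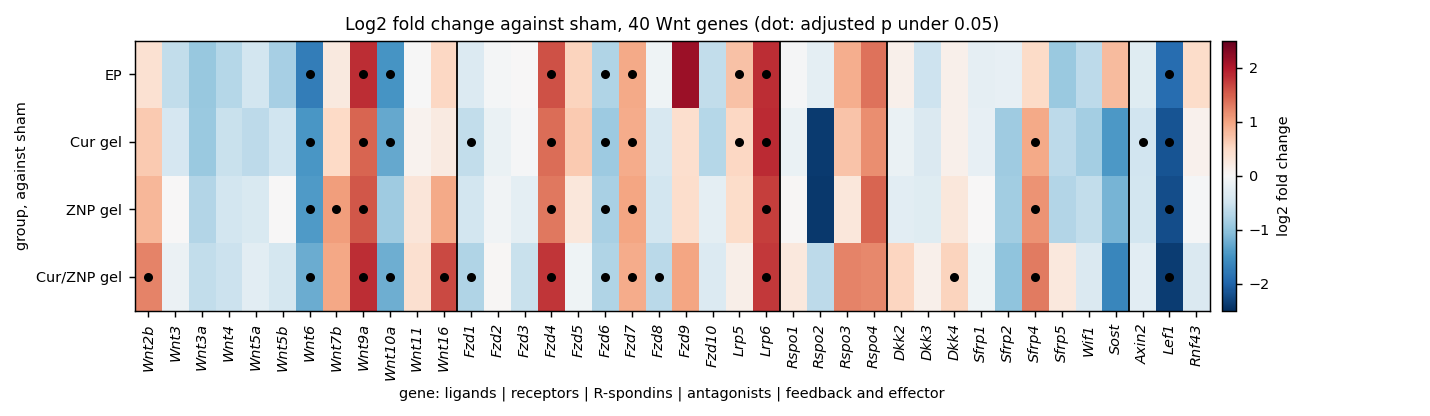
Log2 fold change against sham (colour) of the 40 members tested (columns, in order of role) in the 4 disease groups (rows), with a dot where the adjusted p was under 0.05. Dots filled 7 columns from top to bottom, and 8 members carried dots in gel rows and none in the EP row.

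Sfrp4, a secreted decoy known from bone and tooth-supporting tissue, rose in all 3 gel groups. It counted 903, 829, 728, 2303 and 915 in sham, 1676, 1775, 1774, 879.8 and 1256 in EP, 2477, 2208, 2489, 1312 and 1679 with Cur gel, 2923, 1409.7, 2629, 1893 and 2663 with ZNP gel and 2560.5, 2391, 1368, 3429.8 and 3589 with Cur/ZNP gel. Against sham the log2 fold changes were 0.94 ± 0.31 (SE, adjusted p = 0.0208) with Cur gel, 1.11 ± 0.31 (SE, adjusted p = 0.00980) with ZNP gel and 1.30 ± 0.31 (SE, adjusted p = 0.00269) with Cur/ZNP gel, and 0.47 ± 0.31 (SE, adjusted p = 0.240) in EP. Sham 4 was high for its group, and without it EP passed as well. The Cur gel call was lost without Cur gel 3 or Sham 3. Without Sham 1, Sham 3 and Sham 4 the Cur/ZNP gel still passed (1.54, adjusted p = 0.0157), and the Cur gel (1.18, adjusted p = 0.0533) and the ZNP gel (1.35, adjusted p = 0.0558) did not.

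With the Cur/ZNP gel, 5 more members passed. The ligand Wnt16, known from bone and skin, counted 275, 402, 220.3, 122 and 313 in sham and 1185, 339, 830.3, 819 and 1090.2 with Cur/ZNP gel (log2 fold change 1.66 ± 0.52 SE, adjusted p = 0.0153). Dkk4, which blocks Lrp co-receptors, rose from 594, 721, 536, 339 and 701 in sham to 785, 720.2, 869, 810.0 and 963 (0.56 ± 0.17 SE, adjusted p = 0.0107). The overlap in Dkk4 was a single library pair, since Cur/ZNP gel 2 at 720.2 lay just under Sham 2 at 721. Fzd1 fell from 4207, 4561, 4631, 6177 and 5526 to 2899.7, 3379, 3427, 3246 and 2071 (-0.75 ± 0.19 SE, adjusted p = 0.00442) without overlap, and Fzd8 fell from 303, 373, 526, 421 and 340.0 to 219, 258, 299, 219 and 222 (-0.67 ± 0.18 SE, adjusted p = 0.00628), also without overlap. Wnt2b, a ligand with few reads here, had means of 46.6 ± 32.6 (SD, n = 5) and 96.9 ± 49.8 (1.23 ± 0.45 SE, adjusted p = 0.0341). Its call was lost in 5 of 10 fits without 1 library (Cur/ZNP gel 1, 2 or 4, Sham 1 or 2). None of the 5 passed without Sham 1, Sham 3 and Sham 4, where the log2 fold changes were 1.14 for Wnt16 (adjusted p = 0.308), 0.22 for Dkk4 (adjusted p = 0.394), -0.76 for Fzd1 (adjusted p = 0.0747), -0.56 for Fzd8 (adjusted p = 0.113) and 1.11 for Wnt2b (adjusted p = 0.132).

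Fzd1 also fell with the Cur gel (-0.61 ± 0.19 SE, adjusted p = 0.0161), a call lost without Cur gel 2 or Cur gel 5. Wnt7b, an epithelial ligand, passed with the ZNP gel, where it counted 1183, 1110.4, 878, 1473 and 1819 against 699, 1035, 460.2, 348 and 697 in sham (1.05 ± 0.39 SE, adjusted p = 0.0440). That call was lost in 7 of 10 fits, those without ZNP gel 1, 2, 4 or 5 or Sham 1, 3 or 4. Without Sham 1, Sham 3 and Sham 4 together, Fzd1 (adjusted p = 0.1495) and Axin2 (adjusted p = 0.117) with the Cur gel and Wnt7b with the ZNP gel (adjusted p = 0.593) did not pass. No overlap with sham was seen for 1 higher member with the Cur gel (8.84% of all genes), 2 with the ZNP gel (7.03%) and 4 with the Cur/ZNP gel (9.49%). Among lower members the counts were 0 (8.84%), 0 (6.79%) and 3 (9.26%).

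**Figure D3:**
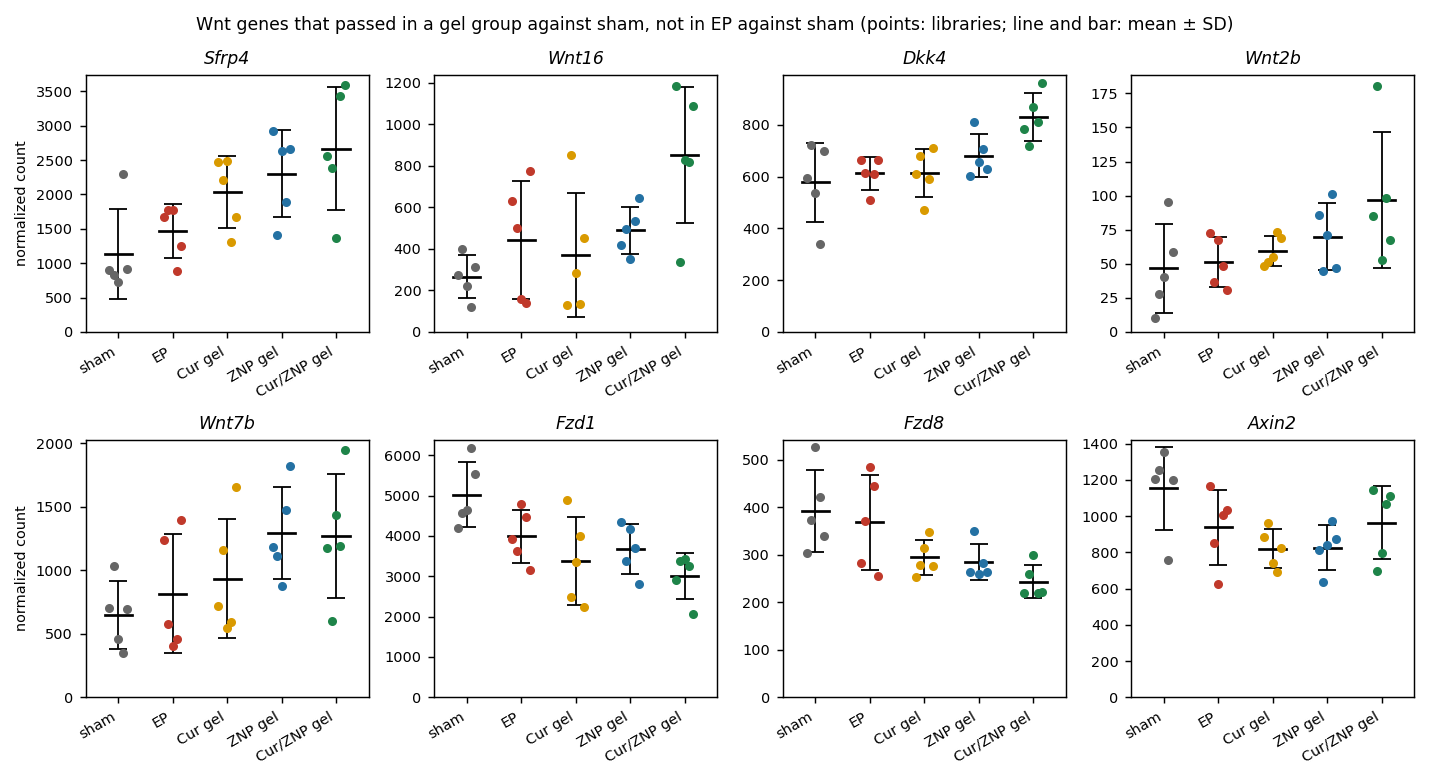
Normalized count (vertical axis, from 0) in each library of the 8 members called in at least 1 gel group against sham and not in EP against sham, with group mean and SD. Group means of Sfrp4 ran from 1135 in sham to 2668 with the Cur/ZNP gel, and those of Fzd8 from 393 to 244.

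Whether any gel moved Wnt genes away from their level in EP was the question of the comparisons with EP. No member passed in any of them by limma, edgeR or DESeq2. Of all 16092 genes, limma called 0 for the Cur gel, 1 (0.00621%) for the ZNP gel and 0 for the Cur/ZNP gel, and edgeR called 0 in each. DESeq2 called 0.491%, 0.379% and 1.26% of all genes in the same order. At an unadjusted p under 0.05 there were 0 members for the Cur gel (1.76% of all genes), 3 for the ZNP gel (2.99%) and 8 for the Cur/ZNP gel (12.8%). The 9 members called between EP and sham differed from EP by -0.58 to 0.60 on the log2 scale in the gel groups, with half-widths of the 95% interval from 0.37 (Lrp5) to 1.17 (Lef1). For Lrp6 the difference from EP was 0.00 with Cur gel (95% interval -0.68 to 0.69), -0.12 with ZNP gel (-0.81 to 0.57) and -0.09 with Cur/ZNP gel (-0.78 to 0.60). Those intervals exclude a fall of the 1.85 by which EP stood above all 5 sham libraries, but contain a fall of the 0.59 by which it stood above Sham 2 and Sham 5 alone. For Wnt10a the interval of the ZNP gel difference, -0.20 to 1.39, was wider and reached close to the size of the fall in EP.

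The 8 members under an unadjusted 0.05 with the Cur/ZNP gel included Lrp5 (-0.58 ± 0.18 SE, adjusted p = 0.293) and Rnf43 (-0.82 ± 0.25 SE, adjusted p = 0.293). Both had lower means than EP. Fzd8 and Fzd1 were lower as well, by -0.56 and -0.42, and Dkk3, Dkk4, Sfrp4 and Wnt16 had higher means, by 0.64, 0.44, 0.83 and 1.14. Dkk4 counted 664, 614, 512, 609 and 666 in EP, so that its highest EP library was below the lowest Cur/ZNP library, at 720.2. It was the one higher member without overlap here, a pattern found for 1.27% of all genes (0.833% in the lower direction, with 0 members), while the ZNP gel and the Cur gel against EP had 0 members without overlap (0.267% and 0.168% of all genes higher, 0.292% and 0.168% lower). None reached an adjusted p below 0.293. With the ZNP gel the 3 were Sfrp4, Wnt5b and Wnt7b, at 0.65, 0.83 and 0.81, each with an adjusted p of 1.

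**Figure D4:**
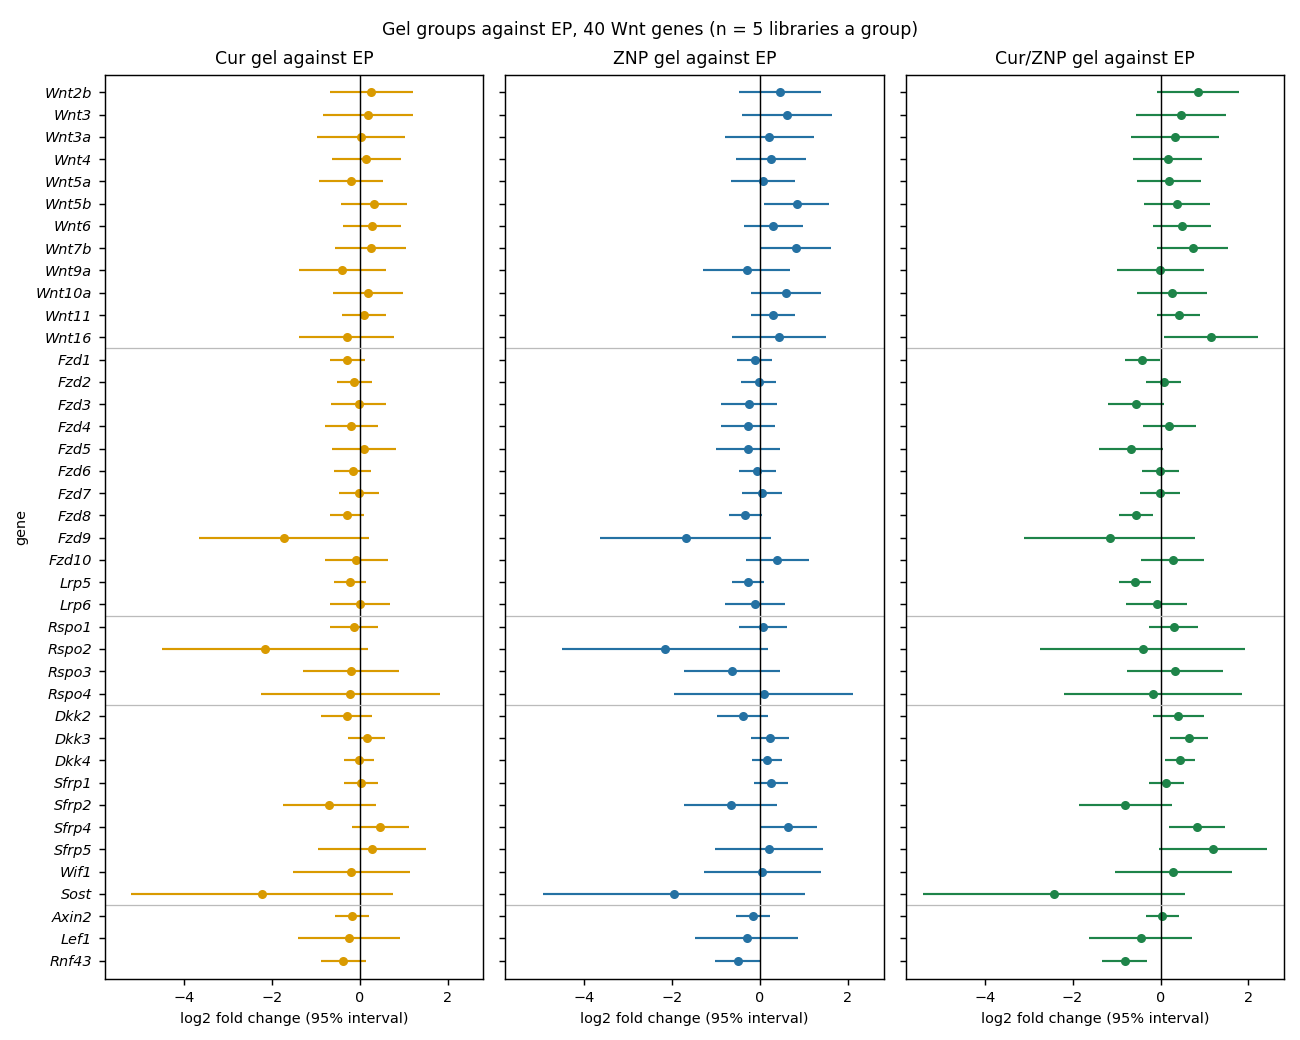
Log2 fold change (points) and 95% interval (lines) of the 40 members for each gel group against EP, from the fit over all 25 libraries. Most intervals crossed 0, the widest were those of Sost, Rspo2, Rspo4 and Fzd9, and no member passed the adjusted threshold.

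Between gels no member passed either. The Cur/ZNP gel against the Cur gel gave 5 members at an unadjusted p under 0.05 (11.1% of all genes), the Cur/ZNP gel against the ZNP gel 1 (5.08%) and the ZNP gel against the Cur gel 0 (1.14%). The largest of these was Wnt16, higher with the Cur/ZNP gel than with the Cur gel by 1.44 ± 0.52 (SE, adjusted p = 0.307). Dkk4 again showed no overlap, with 612, 682, 472, 592 and 711 in the Cur gel group against 720.2 or more with Cur/ZNP gel (0.44 ± 0.17 SE, adjusted p = 0.312), where 1.5% of all genes were higher and 1.06% lower without overlap. Dkk2, a further Lrp antagonist, was higher with the Cur/ZNP gel than with the Cur gel (0.69 ± 0.28 SE, adjusted p = 0.344) and than with the ZNP gel (0.80 ± 0.28 SE, adjusted p = 0.899), neither past the adjusted threshold.

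The members were next set beside summed counts of cell type markers, as deviations of log2 values from group means over the 25 libraries. Of 520 relations between 40 members and 13 marker lists, 51 passed by both Pearson's r and Spearman's rho (permutation test within groups, 100000 permutations, two-sided, adjusted over the 520). They involved 24 members, and what set these levels was not tested. The same relations were not computed for other genes. Whether members moved with these lists more often than genes at large is therefore not known. The genes of epithelium came first. Wnt10a moved with the basal keratinocyte list (r = 0.936, rho = 0.894, adjusted p by permutation 0.000578 and 0.000743, r = 0.884 without Sham 3 and Sham 4), as did Wnt3a (r = 0.914, rho = 0.915, r = 0.898 without them) and Fzd6 (r = 0.861, rho = 0.820, r = 0.802 without them). Wnt6 had r = 0.717 and rho = 0.682 with the same list (adjusted permutation p = 0.0209 and 0.0127), and r = 0.493 without Sham 3 and Sham 4.

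The basal list summed to 119120 to 1713434 in sham (median 869414) and 149704 to 379635 in EP (median 245567). Of its 8 markers, Krt5, Tp63 and Itga6 passed as lower in EP, where 18.8% of all genes did. None passed as higher, and none was at 0 in any library. So the 3 members that fell with Lef1 in EP, Wnt6, Wnt10a and Fzd6, fell beside markers of the basal layer, and the part of these cells in the result was not tested.

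Other members moved with the differentiated keratinocyte list. They were Fzd10 (r = 0.912, rho = 0.841), Wnt7b (r = 0.868, rho = 0.942), Dkk4 (r = 0.849, rho = 0.778) and Wnt16 (r = 0.789, rho = 0.879), all with adjusted permutation p from 0.000578 to 0.00142, and r from 0.698 to 0.926 without Sham 2 and Sham 4. Wnt4 had r = 0.875 with this list and 0.891 with the basal one. Fzd1 ran the other way (r = -0.578, rho = -0.704, adjusted permutation p = 0.0102 and 0.00707). The list had Lor and Ivl called higher in EP, 2 of 9 tested, where 18.8% of all genes were called higher. Krt4, Krt13 and Dsg1 had log2 fold changes above 0, none called. Krt1, Krt10, Krt16 and Sbsn had -0.27, -0.53, -0.30 and -0.21, also uncalled, so the markers went both ways. For the Cur/ZNP gel, Wnt16 and Dkk4 are given beside this list, which summed to 510563 to 1550198 against 72207 to 1091562 in sham, with overlapping ranges.

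**Figure D5:**
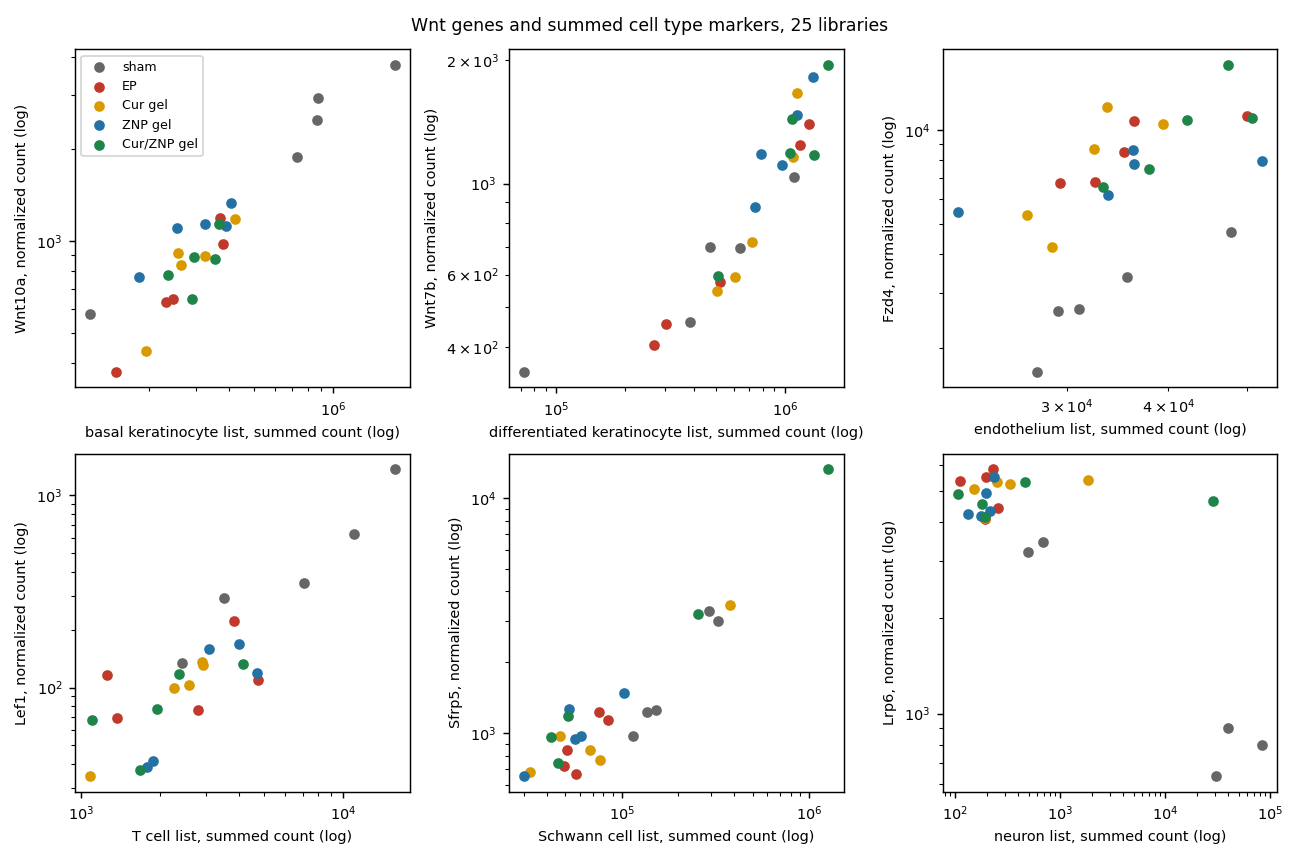
Normalized count of 6 members against the summed normalized count of a marker list in the same library, on log axes, coloured by group. Wnt10a, Wnt7b, Lef1 and Sfrp5 rose along their lists across groups, whereas for Fzd4 the sham libraries lay under the disease libraries at the same endothelial level and for Lrp6 the 3 lowest sham libraries had high neuron counts.

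Members also moved with lists of vessels, lymphocytes and nerve sheath. Fzd4, Wnt9a and Dkk2 moved with the endothelial list (r = 0.738, 0.736 and 0.772, rho = 0.858, 0.824 and 0.799, adjusted permutation p from 0.000578 to 0.00371, r = 0.820, 0.733 and 0.715 without ZNP gel 2 and ZNP gel 3). The endothelial list itself summed to 27588 to 47780 in sham and 29408 to 49943 in EP. Of its 7 markers Vwf was higher and Plvap lower in EP, where 18.8% of all genes were called in each direction. The group difference of Fzd4 and Wnt9a thus stood beside a list with overlapping ranges. Lef1 moved with the T cell list (r = 0.808, rho = 0.779, adjusted permutation p = 0.00320 and 0.00208, r = 0.739 without Cur gel 2 and Sham 2). Of the 10 markers on that list, Bcl11b and Cd247 were called lower in EP, where 18.8% of all genes were called lower. Cd3d and Trat1 were at 0 in 1 and 3 libraries. The part of T cells in the Lef1 result was not tested.

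Sfrp5, an antagonist with no call in any comparison, moved with the Schwann cell list (r = 0.961, rho = 0.922, adjusted permutation p = 0.000578 and 0.00142) and kept r = 0.909 without Cur gel 3 and Cur/ZNP gel 2. In Cur/ZNP gel 2 Sfrp5 counted 13256 and the Schwann list 1269052, against 653.8 to 3510 and 30148 to 377213 in the other 24 libraries. By list, the relations that passed numbered 9 for each of the basal and differentiated keratinocyte lists, 6 for macrophages and neutrophils, 5 each for nasal glands and for osteoblasts, 4 for fibroblasts, 3 each for endothelium and skeletal muscle, 2 each for T cells and tooth, and 1 each for neurons, Schwann cells and salivary gland. All those with nasal glands, osteoblasts and skeletal muscle were negative, as were 5 of the 6 with macrophages and neutrophils, 2 of the 9 with differentiated keratinocytes and 1 of 2 each with T cells and tooth, and the others were positive. Lrp6 did not pass against the neuron list (r = -0.618, rho = -0.286, adjusted permutation p = 0.230 and 0.502).

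Among the members themselves, 28 of 780 pairs had r above 0.7 in these deviations and 2 were below -0.7, as a description over the same 25 libraries. Pairs of other genes were not computed, so these counts are not read as particular to the members. The closest pairs were Wnt3a with Wnt10a (r = 0.944), Wnt4 with Wnt10a (0.928) and Wnt5a with Wif1 (0.886). Lrp6 was closest to Fzd7 (0.757), and Wnt9a to Fzd4 (0.719).

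Of the other genes of the pathway, taken from 7 lists covering secretion, co-receptors, further antagonists, the cytoplasmic relay, nuclear partners, planar polarity and common targets, 70 of 74 were tested and 13 were higher and 8 lower in EP. That is 30% of those tested, against 37.6% of all genes (18.8% higher and 18.8% lower), so the count shows nothing particular to the pathway. Inside the cell, Apc, Gsk3b, Btrc, Amer1, Tnks and Tnks2, 6 of 19 of the relay and destruction complex list, rose and none fell. These were 31.6% of the list, where 18.8% of all genes were called higher and 37.6% in either direction. The list is small, and the difference was not tested. Apc, the scaffold of the complex, rose by 0.97 ± 0.19 (SE; adjusted p = 0.000792), and Tnks, a tankyrase that marks Axin proteins for removal, by 1.63 ± 0.32 (adjusted p = 0.000783). Among 12 nuclear partners tested, Pygo2 fell by 0.46 ± 0.08 (adjusted p = 0.000284) while Bcl9l, Tle1 and Pygo1 rose. Wls, which carries Wnt ligands to the surface, and Gpc6, a glypican, rose by 0.53 ± 0.14 and 2.19 ± 0.47 (adjusted p = 0.00528 and 0.00131), 2 of 7 on the secretion list.

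On the list of other receptors, co-receptors and receptor modulators, 1 of 11 tested was called higher and 2 lower, where 18.8% of all genes were called in each direction. The receptor Ror1 fell by 0.64 ± 0.14 (adjusted p = 0.00183), Ror2 fell also and Mcc rose. Of 9 planar polarity genes tested, Rhoa fell by 0.41 ± 0.09 (adjusted p = 0.00121) and Celsr1 rose. Of 7 genes tested that are known as beta-catenin targets in many tissues, Myc, Jag1 and Tnfrsf19 fell and none rose, where 18.8% of all genes were called lower and the list is small. The median log2 fold change of that list was -0.25, against 0.01 over all genes. Sostdc1, a tooth and skin antagonist, fell as well. The pathway count was 3 without Sham 1, Sham 3 and Sham 4, where 6.34% of all genes were still called. Against EP, no pathway gene was called in any gel group by limma.

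The members below the CPM minimum had few reads. Wnt1, Wnt7a, Wnt8a and Wnt8b had reads in 2, 6, 4 and 4 of the 25 libraries and at most 9 reads in any of them, under 0.2 CPM. Wnt9b and Wnt10b had reads in every library, at up to 1.57 and 1.48 CPM, and Dkk1 in 12. Wnt2 was the exception in its pattern. Counts of this ligand were 0, 3.56, 0, 0 and 6.88 in sham, 11.6, 18.0, 21.1, 19.0 and 11.3 in EP, 20.55, 24.1, 26.7, 16.03 and 25.9 with Cur gel, 0, 0, 21.4, 0 and 0 with ZNP gel and 19.1, 21.0, 25.9, 10.2 and 19.8 with Cur/ZNP gel. Every EP, Cur gel and Cur/ZNP gel library lay above every sham library, while 4 of the 5 ZNP gel libraries had no read, which allows up to 3 reads in each, counting error only. Of the genes that reached the CPM minimum, 8.07% (EP), 8.84% (Cur gel) and 9.49% (Cur/ZNP gel) lay above sham without overlap. In a fit without the minimum, EP (log2 fold change 3.03, adjusted p = 0.00400), the Cur gel (3.51, adjusted p = 0.00132) and the Cur/ZNP gel (3.25, adjusted p = 0.00229) passed against sham and the ZNP gel did not (-0.14, adjusted p = 0.951). Of all genes in that fit, 24.5% were called for EP, 24.7% for the Cur gel, 26.2% for the Cur/ZNP gel and 20.2% for the ZNP gel. The ZNP gel against EP gave -3.17 with an adjusted p of 0.639. These fitted values depend on the pseudocount of 1, because several libraries were at 0.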

How the data were processed

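Total RNA from rat gingiva in 25 libraries, 5 per group, was sequenced after ribosomal RNA depletion. The authors counted reads per Ensembl transcript (Rnor_6.0) and deposited them as a signal, each read count divided by a DESeq2 size factor. Whether strand was used in counting is not given in the sources used here. Multiplied back, the values gave whole reads within 0.01. Transcripts (41078, of which 396 had no symbol and were left out of gene names) were summed into 30547 genes, and 840 blank lines were dropped. Every column was matched to a sample by its name.

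Genes reaching 2 CPM in at least 1 library (16092) were tested on log2(normalized count + 1), so fold changes of low genes are understated, with limma 3.58.1 (trend, robust) in 1 model of 5 groups. P-values were two-sided and adjusted by Benjamini-Hochberg over all genes tested, with a threshold of 0.05. edgeR 4.0.16, DESeq2 1.42.0 (both on recovered reads), other pseudocounts, filters and scalings, and fits without single libraries were alternatives. R 4.3.3 was used. The scripts were tested on simulated data.

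Full values are given for members called between EP and sham, the 4 with most reads, and Axin2, Lef1 and Rnf43, and up to 8 further pathway genes by p. Members called only in a gel group are given with fold, SE and adjusted p. Values of further members, the relations with marker lists and the fits without Sham 1, Sham 3 and Sham 4 were added after the values were seen. Members and lists were chosen with earlier results of these data known. The labels do not say that libraries of a group came from separate rats, so p-values measure the spread between these libraries.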

Additional observations from a re-analysis of the deposited data

Results flagged for a closer look

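In 60 groups of 5 libraries (12 members by 5 groups), 4 had 1 library far from the other 4, where chance gives about 1 in 20. Lrp6 in Cur gel 4 was at 4097, below the other Cur gel libraries at 5062 to 5399. Wnt9a in EP 5 was at 33.1, with the others at 100.1 to 146. Lef1 in Cur gel 2 was at 34.5, with the others at 98.8 to 136. Axin2 in Sham 4 was at 756, with the others at 1199.8 to 1353, and Sham 4 is one of the libraries with many nasal gland reads.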

How the results depend on the processing

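The count of members called in EP against sham was 9 with edgeR (37.0% of all genes), 11 with DESeq2 (42.5%) and 7 in a fit of both groups alone (21.0%, with Lrp5 and Wnt10a lost). It was 8 without Sham 4, EP 3 and EP 4 (28.0% of all genes), of which 6 were among the 9. Without Sham 1, Sham 3 and Sham 4 it was 6 (6.34% of all genes), of which 4 were among the 9 (Lrp6, Wnt6, Wnt10a and Fzd6). Without those 3 sham libraries the counts against sham were 5 for the Cur gel (7.03% of all genes), 2 for the ZNP gel (2.08%) and 6 for the Cur/ZNP gel (7.90%). The pathway genes in EP then numbered 3. Fits of 2 groups alone gave 6 for the Cur gel (20.9% of all genes) and 13 for the pathway genes in EP. Leaving out 1 library gave 9 to 16 in EP (16 without Sham 4), 9 to 16 for the Cur gel, 8 to 13 for the ZNP gel, 13 to 17 for the Cur/ZNP gel and 17 to 28 pathway genes. In EP against sham, 37.4% of all genes were called without Sham 4. The log2 fold change of Sfrp2 in EP, -0.20, turned to 0.051 without Sham 4, EP 3 and EP 4, and leaving out 1 library gave -0.43 to 0.047 (0.047 without Sham 4). The cause was not tested. Replicate numbers did not pair the libraries (correlations of same-numbered libraries from -0.39 to 0.51, and 7 of 25 closest to their own number), and with the replicate block 9 members were called in EP against sham, 14 for the Cur gel, 12 for the ZNP gel and 15 when both agents were given. Values of single members were followed for 12 members in EP and for the gel calls of members not called in EP, so few gains could be counted. Of these values, 424 kept their direction and side of the threshold, 56 lost the call, 1 gained it and 2, both of Sfrp2, turned in direction. Over all members, 7 joined the calls in EP without Sham 4, and 4 joined those of the Cur gel with DESeq2. No setting called a member between gels and EP or between gels. The median of the 95% half-widths was 0.72 on the log2 scale, which sets how small a difference these libraries could show.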

Other observations

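Rspo2, an R-spondin made by mesenchyme, had the largest differences from sham among members in the Cur gel and ZNP gel groups, -2.40 and -2.41 on the log2 scale, neither past the threshold (adjusted p = 0.0970 and 0.104). Of its 3 transcripts, 1 held 73.0% of the reads, with a mean of 117 in sham, 58.2 in EP, 22.9 with Cur gel and 8.80 with ZNP gel. For Wnt4, 1 of 2 transcripts held 97.0% of the reads, and for Sfrp4 98.2%.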
